A study of Drosophila melanogaster with 9 samples.

Results

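The metallothioneins are small, cysteine-rich proteins that bind copper, zinc and cadmium. In Drosophila their genes are switched on by MTF-1, a zinc finger transcription factor that enters the nucleus when metal is in excess and binds metal response elements in their promoters, so that metallothionein transcripts serve as a readout of metal load. Ctr1A, a copper importer of the plasma membrane, acts on the supply side of the same balance.

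The levels of 6 genes were followed here across 3 genotypes: the metallothionein genes MtnA, MtnB, MtnC and MtnD, their regulator MTF-1, and Ctr1A. Each was found by its gene identifier in the annotation of the array, and each had 1 probe set, so that no choice among probe sets was needed. They are 6 of 11983 genes measured. MtnA, MtnB, MtnC and MtnD lie on chromosome 3R, MTF-1 on 3L and Ctr1A on X. The metallothioneins MtnE and MtnF had no probe set listed for them and were not analysed here.

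The arrays were Affymetrix Drosophila_2 arrays, 9 in all, with 3 from an OGA mutant, 3 from an SXC mutant and 3 from wild type. The transferase that attaches the sugar O-GlcNAc to nuclear and cytosolic proteins is encoded by sxc (super sex combs), and the enzyme that removes it by Oga. The labels give no allele, age, tissue, stage, diet or metal content of the food, and leave it unsaid whether the replicates are separate animals. The p-values below therefore measure the spread between these arrays, which may be technical. All values are levels on a log2 scale, on which a difference of 1 is a factor of 2.

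Oga was lower in the OGA mutant (8.84, against 9.90 in wild type; limma adjusted p = 0.00698) and sxc was lower in the SXC mutant (10.35, against 11.84 in wild type; adjusted p = 2.80e-07). Of the tissue markers, 44 of 53 measured lay below the median level of all genes (7.50), among them 10 of 12 female germline and eggshell genes, all 7 midgut genes and all 4 Malpighian tubule genes. All 4 haemocyte genes (Hml, NimC1, eater and Pxn) lay above it. So did the fat body genes apolpp (56.4% of genes had a lower mean) and Lpin (54.0%) and the neuronal gene elav (53.5%). The other fat body genes (5 of 7) and neuronal genes (3 of 4) lay below it. The title of the series speaks of oogenesis, and the germline genes among the 12 did not read alike. The germline gene vas had means of 4.86, 4.73 and 4.89 in the OGA mutant, SXC mutant and wild type (16.3% of genes had a lower mean over the 9 arrays). The piRNA pathway gene aub had 11.05, 11.08 and 11.07 (82.7% lower), and grk, which encodes the oocyte's signal to the follicle cells, 11.26, 11.55 and 11.14 (85.7% lower). Only aub and grk of the 12 lay above the median of all genes. The germline genes nanos (15.75% lower), osk (38.55%), otu (5.05%) and bam (19.49%) lay below it, as vas did. The summed level of the haemocyte genes was 14.74 to 14.996 in the OGA mutant, 14.80 to 14.91 in the SXC mutant and 14.86 to 14.97 in wild type. Within this list eater was higher in the SXC mutant than in wild type (log2 0.57, adjusted p = 0.00810) and Pxn lower (−0.51, adjusted p = 0.0250). The summed female germline and eggshell level was higher in the SXC mutant (12.46 to 12.52, against 12.23 to 12.33 in wild type), with 2 of 12 genes called higher. That of the 4 neuronal genes was lower (8.95 to 9.07, against 9.12 to 9.25), with 1 called lower. Beside these counts and those of the other lists, 5.09% of all genes were called higher and 7.83% lower in the SXC mutant against wild type. The sums of the Malpighian tubule (7.604 to 7.862, against 7.52 to 7.53) and muscle genes (6.91 to 7.10, against 6.71 to 6.84) lay above wild type, and those of the male (7.59 to 7.74, against 7.77 to 7.84) and photoreceptor genes (7.12 to 7.17, against 7.28 to 7.59) below it. Single genes had much larger changes than the rest of these lists. Among the male genes it was bb8 (−0.37, with 4 of the 7 changes positive), and among the neuronal genes elav (−0.35, with 2 of the 4 positive). Among the photoreceptor genes it was Arr2 (−0.53), and among the muscle genes up (0.43). The sums were taken off the log2 scale, so genes of high level weigh most in them. In the female list aub (0.01) and grk (0.40, called) had the highest levels. The other called gene of that list, nanos (0.47), read 4.61 in wild type. In the Malpighian tubule list the largest changes were in NaPi-T (0.36) and salt (0.19). The midgut sums overlapped (8.63 to 8.78, against 8.52 to 8.73; 1 of 7 called). Those of the fat body genes overlapped too (10.14 to 10.24, against 9.98 to 10.21, with 0 of 7 called). The part of these shifts in the results below was not tested. In whole RNA of this kind, fewer cells of a type and less RNA per cell cannot be told apart.

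MtnA had the largest difference between genotypes among the 6 genes. It read 12.46, 12.30 and 12.54 in the OGA mutant, 11.27, 11.54 and 11.69 in the SXC mutant, and 12.46, 12.57 and 12.60 in wild type. All 3 SXC mutant arrays lay below every OGA mutant and wild-type array, while the OGA mutant and wild-type values overlapped. The means were 12.43 ± 0.12 in the OGA mutant, 11.50 ± 0.21 in the SXC mutant and 12.54 ± 0.07 in wild type (SD, n = 3 each).

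Against wild type, MtnA fell in the SXC mutant by 1.04 on the log2 scale with SE 0.10 (limma adjusted p = 0.000424, over all 11983 genes), which is 2.06-fold with a 95% interval of 1.76 to 2.41. In size this was the 17th fall among all genes, and 19 genes fell at least 2-fold with a call. In the OGA mutant the difference from wild type was −0.11 with SE 0.10 and a 95% interval of −0.33 to 0.12 (adjusted p = 0.974). The difference between the mutants was tested directly: MtnA was 1.91-fold higher in the OGA mutant than in the SXC mutant (log2 0.93 with SE 0.10, 95% interval 0.71 to 1.16, adjusted p = 0.000542). The order of the levels was thus SXC mutant, OGA mutant, wild type from low to high, and the upper pair did not differ beyond their spread at this number of arrays.

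**Figure D1:**
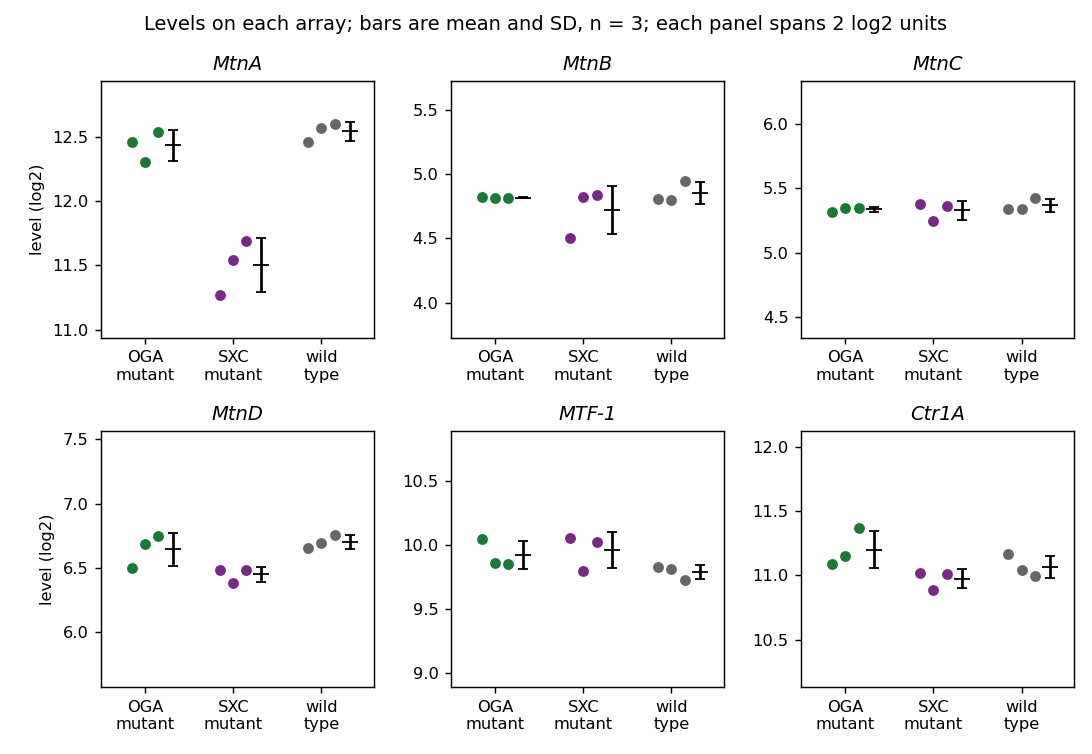
Levels (log2) of the 6 genes on the 9 arrays, in the OGA mutant, SXC mutant and wild type. Points are arrays, and bars give the mean and SD of each group (n = 3); every panel spans 2 log2 units. The 3 SXC mutant values of MtnA (11.27 to 11.69) sit apart from the rest, and the other panels show smaller differences.

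The fall of MtnA was present on each SXC array, and was largest on replicate 1. Left out in turn, the 9 arrays gave log2 changes between −1.14 and −0.93, with the smallest size when SXC mutant replicate 1 was left out, and the call held each time. That array also had the largest excess of 3′ over 5′ signal in the control GAPDH_r2, a sign of RNA quality (log2 3.08, 2.61 and 2.64 in the SXC mutant, 2.10, 2.31 and 2.06 in the OGA mutant, and 2.001, 2.36 and 2.08 in wild type). Those values moved with the SXC mutant, and their part in the change of MtnA was not tested. The second GAPDH pair read 1.24, 1.12 and 1.08 in the SXC mutant, against 0.91, 0.95 and 1.12 in wild type, and overlapped. It read 0.999, 1.02 and 0.965 in the OGA mutant, all below the 3 SXC mutant values, and its part in the difference of MtnA between the mutants was not tested. MtnA is a short gene (964 bp). Among the 1923 genes of at most 1000 bp the median change in the SXC mutant was −0.02. Of these, 198 were called lower and 31 higher, where 7.83% of all genes were called lower and 5.09% higher. Over the 11885 genes with a known length, the change correlated with log2 length at r = 0.18. Of the 1923 genes 8, MtnA included, had a fall as large as that of MtnA. With a trend of change on gene length removed from every array, the change of MtnA was −0.99 (limma adjusted p = 0.000672). The part of gene length beyond that trend was not tested.

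MtnD moved the same way by a small amount. It read 6.50, 6.68 and 6.75 in the OGA mutant, 6.48, 6.38 and 6.48 in the SXC mutant, and 6.65, 6.69 and 6.76 in wild type. The SXC mutant values lay below all others, with a narrow gap between the highest of them and OGA mutant replicate 1. Against wild type MtnD fell in the SXC mutant by 0.25 on the log2 scale (SE 0.07, 1.19-fold, 95% interval of the log2 change −0.42 to −0.09), just inside the threshold (limma adjusted p = 0.0471).

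That call did not last when arrays were left out. It ended without OGA mutant replicate 2 (adjusted p = 0.0639), without SXC mutant replicate 1 (0.0832), 2 (0.156) or 3 (0.0780), and without wild type replicate 1 (0.0921), 2 (0.113) or 3 (0.132). It also ended under 6 of the 10 other alternatives. The sign stayed negative in all 19, between −0.28 and −0.22. In the OGA mutant MtnD differed from wild type by −0.06 (95% interval −0.22 to 0.11, adjusted p = 0.979), and from the SXC mutant by 0.20 (0.03 to 0.36, adjusted p = 0.118). MtnD read below the median of all genes on every array, and no detection calls were used, so a level near background cannot be told from a low transcript level.

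MtnB, a metallothionein known to be induced by cadmium, and MtnC lay near the bottom of the scale. MtnB read 4.82, 4.81 and 4.81 in the OGA mutant, 4.50, 4.82 and 4.84 in the SXC mutant, and 4.81, 4.80 and 4.95 in wild type. The groups overlapped, and 1 array, SXC mutant replicate 1, stood below the other 8. Its difference from wild type was −0.13 in the SXC mutant (95% interval −0.33 to 0.07, adjusted p = 0.415) and −0.04 in the OGA mutant (−0.23 to 0.16, adjusted p = 0.987). Without SXC mutant replicate 1 the SXC difference was −0.02.

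MtnC read 5.32, 5.35 and 5.35 in the OGA mutant, 5.38, 5.25 and 5.36 in the SXC mutant, and 5.34, 5.34 and 5.43 in wild type. These ranges overlapped throughout. Its difference from wild type was −0.04 in the SXC mutant (95% interval −0.18 to 0.10, adjusted p = 0.746) and −0.03 in the OGA mutant (−0.17 to 0.10, adjusted p = 0.987). Only 15.5% of genes had a lower mean than MtnB, and 28.2% a lower mean than MtnC. For both genes the values of OGA mutant replicates 2 and 3 were identical to the last digit deposited, so the SD in that group rests on 2 distinct values. These arrays shared 36 identical values among the 11983 genes (0.300%), within the 16 to 76 (0.134% to 0.634%) of all 36 pairs of arrays.

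MTF-1, the regulator, passed the test in neither mutant. It read 10.05, 9.86 and 9.86 in the OGA mutant, 10.06, 9.80 and 10.02 in the SXC mutant, and 9.83, 9.81 and 9.72 in wild type. The OGA mutant values lay above all wild-type values by a narrow gap, and the SXC mutant values overlapped with both. Its difference from wild type was 0.13 with SE 0.08 in the OGA mutant (95% interval −0.05 to 0.32, limma adjusted p = 0.974) and 0.17 with SE 0.08 in the SXC mutant (−0.01 to 0.36, adjusted p = 0.226). The mutants differed from each other by −0.04 (−0.22 to 0.14, adjusted p = 0.810). In the main fit, the interval for the SXC mutant leaves room for a rise of MTF-1 of up to 1.28-fold. The same interval holds no fall beyond 0.01 on the log2 scale, a bound that depends on the fit. Array quality weights gave a smaller rise in the SXC mutant (0.07, SE 0.07), whose spread allows a larger fall. The sign was positive in all 19 alternatives (0.07 to 0.25). MTF-1 is a long gene (9179 bp). With the length trend removed its difference from wild type was 0.09 in the OGA mutant and 0.11 in the SXC mutant. These are transcript levels, and nuclear entry of the MTF-1 protein was not measured.

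The copper importer gene Ctr1A read 11.09, 11.15 and 11.37 in the OGA mutant, 11.02, 10.89 and 11.01 in the SXC mutant, and 11.16, 11.04 and 10.99 in wild type. Each mutant overlapped with wild type, but the mutants did not overlap with each other. The difference from wild type was 0.13 in the OGA mutant (95% interval −0.05 to 0.32, adjusted p = 0.974) and −0.09 in the SXC mutant (−0.28 to 0.09, adjusted p = 0.556). Between the mutants it was 0.23 with SE 0.08 (0.04 to 0.41, adjusted p = 0.106), which did not pass. OGA mutant replicate 3 was the highest array, and without it that difference was 0.14. Ctr1A is also a long gene (6612 bp). With the length trend removed its difference from wild type was 0.10 in the OGA mutant and −0.14 in the SXC mutant.

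**Figure D2:**
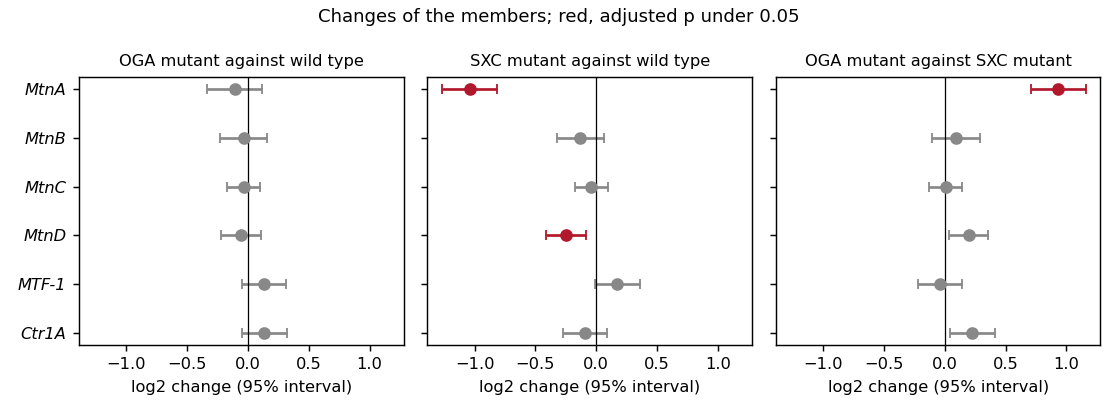
Log2 changes of the 6 genes with 95% intervals in the OGA mutant against wild type, in the SXC mutant against wild type, and between the mutants; red points passed an adjusted p of 0.05. MtnA stands at −1.04 against wild type in the SXC mutant and at 0.93 between the mutants, and the other intervals lie within about 0.4 of 0.

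Counted over the 6 genes, 2 fell and 0 rose in the SXC mutant against wild type, where 7.83% of all genes were called lower and 5.09% higher. Their median change was −0.11, beside −0.01 over all genes. Groups did not overlap for 2 of the 6, against 32.7% of all genes, a share close to theirs. In the OGA mutant against wild type 0 of the 6 were called, where 0.00835% of genes were lower (1 gene, Oga) and 0% higher in limma. At an unadjusted p under 0.05 that comparison held 468 genes, none of them one of the 6. Groups did not overlap for 1 of the 6 (MTF-1), against 9.04% of all genes. Between the mutants 1 of the 6 (MtnA) was higher in the OGA mutant and 0 lower, where 7.79% of all genes were higher and 3.98% lower. Groups did not overlap there for 3 of the 6 (MtnA, MtnD and Ctr1A), against 30.2% of all genes. The comparisons with wild type share the wild-type arrays, and those with the SXC mutant share its arrays.

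**Figure D3:**
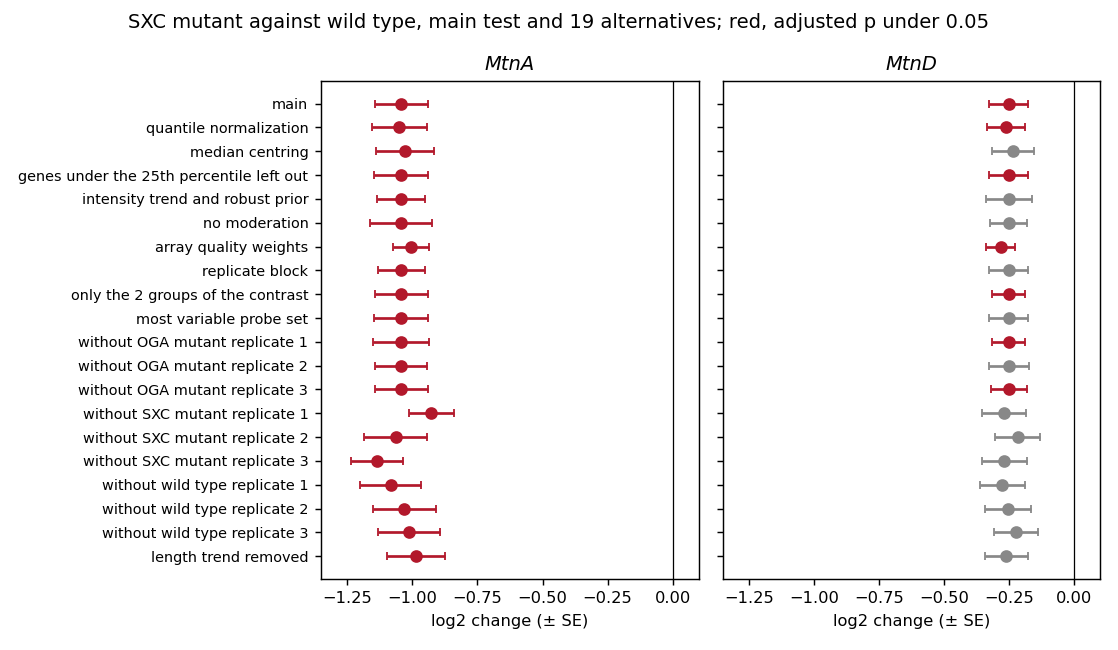
Log2 change ± SE of MtnA and MtnD in the SXC mutant against wild type under the main test and 19 alternatives; red points passed an adjusted p of 0.05. MtnA passed in all of them (−1.14 to −0.93), and MtnD in the main test and 6 of the alternatives.

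Other genes that carry or store metal were taken from a list of 49, of which 45 were measured, the 6 above included. In the SXC mutant against wild type 6 of the 45 fell, 3 rose and 36 did not pass, where 7.83% of all genes fell and 5.09% rose. Their median change was −0.03, beside −0.01 over all genes. In the OGA mutant 0 of the 45 passed, with a median of 0.01. In limma the smallest unadjusted p belonged to ZnT63C, a zinc exporter gene (log2 0.25 with SE 0.10, adjusted p = 0.974), followed by ZnT86D (0.16), the metal ion transporter gene Mvl (0.21), Cox17 (−0.13) and Sod3 (−0.22). Between the mutants 4 of the 45 were higher in the OGA mutant and 2 lower, shares close to those of all genes (7.79% higher and 3.98% lower).

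Copper delivery genes were among those that fell in the SXC mutant. Of the 10 measured copper genes (Ctr1A included) 3 fell and 0 rose, where 7.83% of all genes fell and 5.09% rose. A negative change was seen in 9 of the 10, called or not, with a median of −0.14 beside −0.01 over all genes. Sod3, an extracellular copper and zinc superoxide dismutase, fell by 0.39 (SE 0.11, to 7.32 in the SXC mutant, against 7.71 in wild type, adjusted p = 0.0365). Atox1, the chaperone that hands copper to the exporter ATP7, fell by 0.33 (10.89, against 11.23 in wild type, adjusted p = 0.0450). Cox11, which places copper in cytochrome c oxidase, fell by 0.30 (10.52, against 10.83 in wild type, adjusted p = 0.0127). The calls of Sod3 and Atox1 ended in 5 and 12 of the 19 alternatives, as set out below. The exporter gene ATP7 had a change of −0.15 (adjusted p = 0.347), Ccs, the chaperone of Sod1, −0.09 (0.679), Cox17 −0.16 (0.101), and the importer genes Ctr1B and Ctr1C, which read 3.88 to 4.99 on all arrays, −0.13 (0.239) and −0.03 (0.846).

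Among the 17 zinc transport genes 3 rose in the SXC mutant and 0 fell, with a median of 0.02, where 5.09% of all genes rose and 7.83% fell. The largest rise was in foi (fear of intimacy), a zinc importer gene needed for gonad and tracheal shape, at 1.65-fold. It averaged 11.69 ± 0.07 in the SXC mutant and 10.97 ± 0.16 in wild type (SD, n = 3 each; log2 0.72 with SE 0.10, adjusted p = 0.00160), with groups that did not overlap (11.64 to 11.78, against 10.80 to 11.12). ZnT77C, of the zinc exporter family, rose by 0.53 (SE 0.14, adjusted p = 0.0314) and Zip99C, a ZIP family gene linked in flies to iron export, by 0.37 (SE 0.09, adjusted p = 0.0254). The mean of ZnT77C over the 9 arrays (6.94) lay below the median of all genes (7.50). Its SXC mutant values were spread from 7.12 to 7.71. With single arrays left out its change ran from 0.35 to 0.64. Of 13 iron genes 1 fell and 0 rose, a share close to that of all genes (7.83% fell and 5.09% rose). The frataxin gene fh, of iron-sulfur cluster assembly, fell by 0.37 (SE 0.06, 10.21 in the SXC mutant, against 10.59 in wild type, adjusted p = 0.00419). The ferritin heavy chain gene Fer1HCH had a change of 0.09 (adjusted p = 0.489) and the light chain gene Fer2LCH of −0.01 (0.971).

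Of these calls against wild type, those of foi, Cox11 and fh held in all 19 alternatives, as that of MtnA did. Left out in turn, single arrays changed the number of the 45 genes called, which was 9. It was 4, 7 and 5 without SXC mutant replicates 1, 2 and 3, and 4, 4 and 7 without wild type replicates 1, 2 and 3. Without OGA mutant replicates 1, 2 and 3 it was 9, 7 and 11. The Atox1 call ended without any 1 of the SXC mutant or wild-type arrays (adjusted p between 0.0613 and 0.171) and without OGA mutant replicate 2 (0.0630). It also ended with quantile normalization (0.0650), median centring (0.0783), no moderation (0.137), a replicate block (0.0580) and the length trend removed (0.108). The Sod3 and Zip99C calls ended without SXC mutant replicate 1 (0.0779 and 0.0807) or 3 (0.113 and 0.0679), or wild type replicate 1 (0.151 and 0.0908) or 2 (0.118 and 0.0945), and with no moderation (0.133 and 0.0946). That of ZnT77C ended without SXC mutant replicate 1 (0.0729) or wild type replicate 1 (0.110), 2 (0.0787) or 3 (0.0680), and with no moderation (0.141), a replicate block (0.0606) and the length trend removed (0.0635).

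Between the mutants the 6 calls on the list of 45 were MtnA, Cox11, fh and mfrn, higher in the OGA mutant, and foi and ZnT77C, lower in it. The mitochondrial iron importer gene mfrn (mitoferrin) differed by 0.31 (10.48 in the OGA mutant, against 10.17 in the SXC mutant, adjusted p = 0.0233). The number called was 3 without OGA mutant replicate 3 and likewise 3 without replicate 1 or 2 of the SXC mutant. It was 4 without OGA mutant replicate 2 or SXC mutant replicate 3. The Cox11 and fh calls ended without OGA mutant replicate 2 (adjusted p = 0.0740 and 0.0879) or 3 (0.0786 and 0.0826), or SXC mutant replicate 1 (0.0527 and 0.0654), 2 (0.0718 and 0.0677) or 3 (0.0612 and 0.0752). Both also ended with quantile normalization (0.0588 and 0.0620), median centring (0.0782 and 0.0728) and only the OGA and SXC mutants fitted (0.0545 and 0.0569), that of Cox11 with no moderation (0.0523) and that of fh with a replicate block (0.0592). That of mfrn ended without OGA mutant replicate 1 (0.0667) or 3 (0.0589) or SXC mutant replicate 1 (0.0719) or 2 (0.0703), and with no moderation (0.0719). That of ZnT77C ended with no moderation (0.0914).

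**Figure D4:**
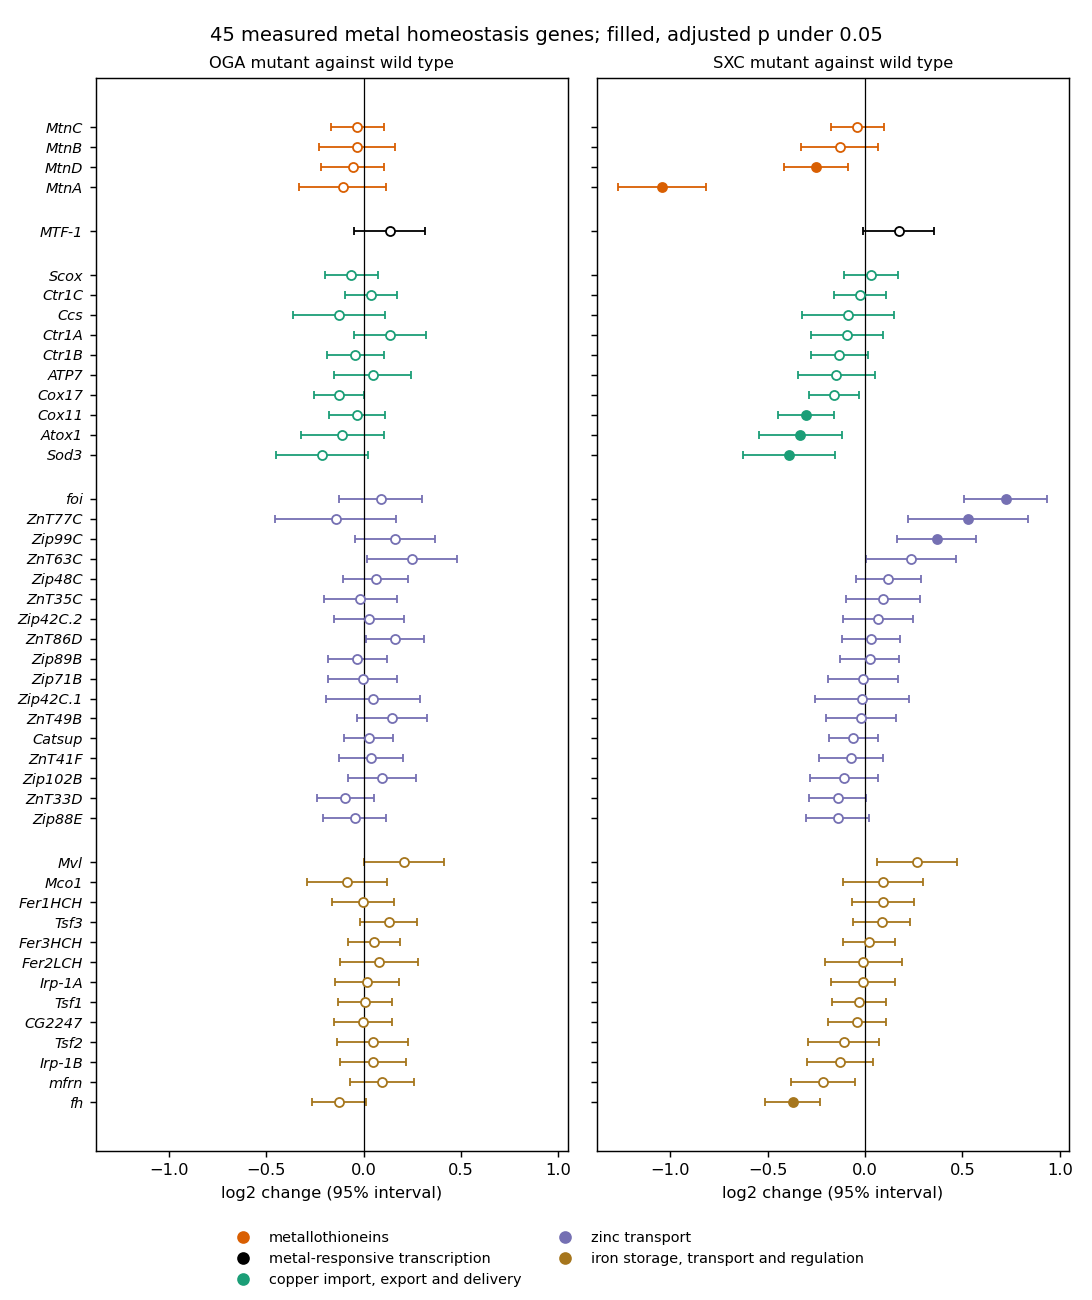
Log2 changes with 95% intervals of the 45 measured metal homeostasis genes in the OGA mutant (left) and the SXC mutant (right) against wild type, grouped by role; filled points passed an adjusted p of 0.05. In the SXC mutant MtnA lies lowest (−1.04) and foi highest (0.72), and 0 points are filled in the OGA mutant.

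The genes whose levels ran most like those of MtnA over the 9 arrays were sought among 240 genes with a mean above the median and a difference of at least 1 between their highest and lowest array. They were squ (squash), a piRNA pathway gene (Pearson r = 0.985), CG2930 (r = 0.983) and wac (wee Augmin component), a gene of mitotic spindle assembly (r = 0.979). The 9 arrays share their groups, so these correlations are a description and carry no p. In the SXC mutant squ differed from wild type by −0.87, CG2930 by −0.87 and wac by −0.76. A choice by correlation with MtnA favours genes that fall in the SXC mutant, so these falls are no separate finding. For MtnD the nearest genes were CG5321 (r = 0.915), CG13690 (r = 0.877) and CG1544 (r = 0.876).

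**Figure D5:**
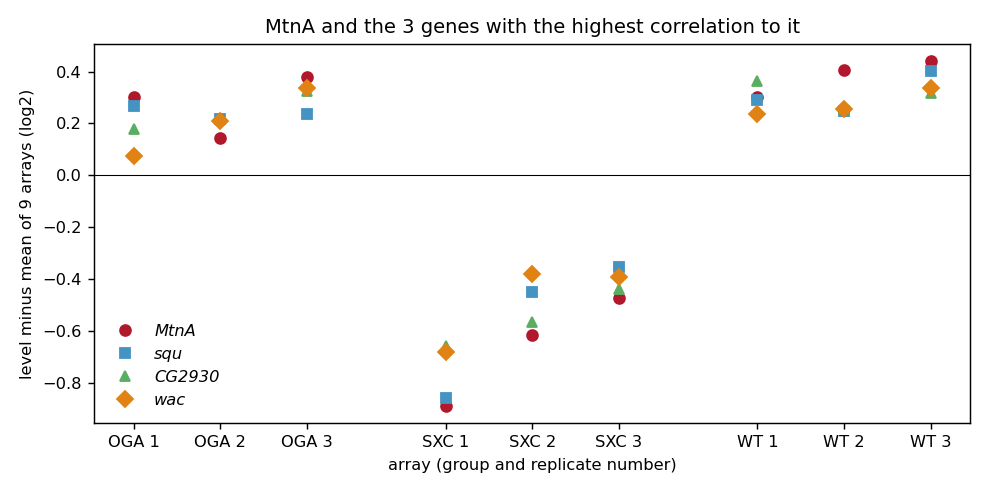
Level minus the mean of 9 arrays (log2) of MtnA and of squ, CG2930 and wac, by array in the OGA mutant, SXC mutant and wild type. All 4 genes lie below 0 on the 3 SXC mutant arrays and above 0 on the other 6, and all 4 are lowest on SXC mutant replicate 1. The choice of squ, CG2930 and wac by their correlation with MtnA favours this pattern.

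Of the 10 measured genes nearest to MtnA on 3R, 5 on each side, 1 fell in the SXC mutant (topi, −0.46, limma adjusted p = 0.0354) and 0 rose. The 10 changes ran from −0.46 to 0.17. Beside this and the counts below, 7.83% of all genes fell and 5.09% rose, and 1 of 10 is close to that share. MtnB, MtnC and MtnD lie near each other on 3R: 4 measured genes separate MtnC from MtnB, and 2 separate MtnB from MtnD. Of the 10 measured genes nearest to MtnD 2 fell, CG5180 (−0.31) and CG15922 (−0.29). Of those nearest to MtnB 2 fell, MtnD itself and CG5180, and of those nearest to MtnC 1 fell, CG4362 (−0.32). Around MTF-1, 2 of 10 rose, aay (0.41) and CG3529 (0.27), and 1 fell, ghi (−0.27). Next to Ctr1A, 1 of 10 fell. It was Mcm6, a subunit of the replicative helicase that lies 2 measured genes away (−0.99, adjusted p = 0.000675), while Ctr1A itself did not pass.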

How the data were processed

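The authors deposited log2 values, 1 per probe set and array; the scale was read from the values, which were positive with nearly equal quartiles on all 9 arrays (medians 5.96 to 6.04). The submitters' processing notes name MAS5, RMA and Partek without versions, and the method behind the deposited log2 values was not given in the sources used here. Of 18952 probe sets 183 were controls, 13647 had 1 gene, 402 several and 4720 none listed. Symbols were updated through the gene identifier with a RefSeq table (Release 6 plus ISO1 MT), and 103 probe sets had a gene not in it. The probe set with the highest mean was taken per gene. Unmapped sample columns numbered 0. The study's number of arrays limits the precision.

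Group means were fitted over all 9 arrays with limma 3.58.1 in R 4.3.3 (6 residual and 5.17 prior degrees of freedom), and a gene was called where its p, adjusted by Benjamini-Hochberg across all 11983 genes, was under 0.05. Code was tested on simulated data. The members and lists were chosen with earlier results of these data known. Named were the 6 genes, Oga and sxc, called genes of the metal list and the 5 with the smallest p, and the 3 genes most correlated with each called member; neighbours, tissue markers and Ctr1C, ATP7 and other list genes named with values were chosen after their values were seen. Deviations from the group means correlated at −0.22 to 0.29 over 9 pairs of same-numbered arrays, and at −0.32 to 0.24 over 18 pairs of different number. With 3 arrays a group these ranges cannot settle whether arrays of the same number shared a batch. The alternatives were other scalings, filters, priors, weights, probe sets and array subsets; removal of a length trend (natural spline, 3 degrees of freedom) was added after seeing the data.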

Additional observations from a re-analysis of the deposited data

Results flagged for a closer look

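For 6 of the 45 measured metal genes the effects of the mutants differed when the difference itself was tested (OGA mutant against SXC mutant, limma, adjusted over all genes). That share is close to the 11.8% of all genes called in this comparison. The OGA effect minus the SXC effect was 0.93 for MtnA on the log2 scale (adjusted p = 0.000542), 0.27 for Cox11 (0.0241), −0.67 for ZnT77C (0.0125), −0.64 for foi (0.00324), 0.31 for mfrn (0.0233) and 0.25 for fh (0.0288). Of these, MtnA and foi kept their calls under all 19 alternatives.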

How the results depend on the processing

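MtnA kept its sign and its call in the SXC mutant and between the mutants under all 19 alternatives, with adjusted p between 1.05e-05 and 0.0161 against wild type and between 6.97e-05 and 0.0251 between the mutants. The number of the 6 genes called in the SXC mutant was 2, and 1 (MtnA alone) with median centring, an intensity trend with a robust prior, no moderation, a replicate block, the most variable probe set of each gene or the length trend removed; it was 1 to 2 with single arrays left out. Between the mutants it was 1, but 3 with array quality weights, where MtnD (adjusted p = 0.0389) and Ctr1A (0.0421) passed, and 1 to 2 with single arrays left out (MtnD at 0.0421 without OGA mutant replicate 1). In the OGA mutant it was 0 throughout. The replicate block gave adjusted p = 0.000909 for MtnA and 0.0598 for MtnD in the SXC mutant; 1 of 9 arrays correlated best with its own number. Of the 45 metal genes, 9 were called in the SXC mutant, but 5 with no moderation, 12 with array quality weights and 4 to 11 with single arrays left out. Between the mutants 6 were called, but 3 with no moderation, 8 with array quality weights and 3 to 6 with single arrays left out.

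Over all genes the number called in the OGA mutant was 1, but 2 with an intensity trend and robust prior, 0 with no moderation or only the 2 groups fitted, and 0 to 1 with single arrays left out. In the SXC mutant it was 1548, but 820 with no moderation, 2824 with array quality weights and 664 to 1751 with single arrays left out (664 and 1027 without replicates 1 and 2 of wild type, 896 and 984 without replicates 1 and 2 of the SXC mutant). Between the mutants it was 1410, but 459 with no moderation, 1877 with array quality weights and 724 to 1334 with single arrays left out (724 and 793 without replicates 1 and 2 of the SXC mutant, 806 without replicate 3 of the OGA mutant).

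Signs turned only for differences that did not pass. With the length trend removed, the OGA mutant differed from wild type by 0.00502 for MtnB, 0.0317 for MtnC and 0.00584 for MtnD. Between the mutants, MtnC was −0.0257 with median centring and MTF-1 0.0397 with array quality weights. With single arrays left out, the difference of the OGA mutant from wild type ran from −0.0616 to 0.0128 for MtnB (positive without wild type replicate 3) and from −0.108 to 0.0138 for MtnD (positive without OGA mutant replicate 1). MtnC ran from −0.0673 to 0.000615 in the SXC mutant against wild type (positive without SXC mutant replicate 2). Between the mutants MtnB ran from −0.0148 (without SXC mutant replicate 1) to 0.154, MtnC from −0.0332 (without SXC mutant replicate 2) to 0.0347, and MTF-1 from −0.119 to 0.00863 (without SXC mutant replicate 1). MtnB lay under the 25th percentile of mean level and has no value with that filter. The causes were not tested. No detection calls were used, so levels near background limit what can be said of MtnB, MtnC and MtnD.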
